A study of Mus musculus with 80 samples.

Results

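The liver of mice lacking both UCP1 and FGF21 was compared with the liver of mice lacking FGF21 alone, which asks what loss of UCP1 does to hepatic transcripts where FGF21 cannot act. The members were chosen by their labels as the 5 liver libraries of the double knockout and the 5 liver libraries of FGF21 KO, 10 of the 80 libraries of the study. The labels write the double knockout as UCP1/FGF12 double KO, and it is called dKO here because Fgf21 was the gene with almost no counts. All mice were males on a C57BL/6J background that were bred and weaned at 30 °C, moved at an age of 10 to 12 weeks to room temperature with a high-fat diet for 3 weeks, and sacrificed a few hours after lights on. The homozygous lines were derived from a cross of UCP1 KO with FGF21 KO mice. FGF21 KO and dKO both carried the Fgf21 knockout, and dKO also carried the Ucp1 knockout. WT and UCP1 KO mice, which both kept Fgf21, had the same treatment and gave 5 liver libraries each. How the Ucp1 allele was made is not given in the sources used here. Nothing in the labels tied a library to a litter or linked the tissues of a mouse, so p-values treat the libraries as separate samples. The labels carry no replicate numbers, and those used here follow the order of the sample records.

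UCP1 is a proton channel of the inner mitochondrial membrane in brown and beige fat, where it lets respiration run as heat. It is not a gene that hepatocytes use. FGF21 is a hormone made mainly in liver, under control of PPARα and of the integrated stress response, and acts through FGF receptors with β-Klotho as co-receptor. Neither group here could make the hormone, in liver or elsewhere.

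The knocked out genes were read first. Fgf21 had 0 to 2 counts per library in FGF21 KO liver and 1 to 3 in dKO liver, where WT had 51 to 107 and UCP1 KO 29 to 84. Ucp1 was at a trace level in liver in every genotype, with 31 to 109 counts in FGF21 KO and 19 to 74 in dKO, so it did not check the dKO label there. In brown fat (BAT) of the same genotypes Ucp1 transcript was lower but present, at 1046 to 1883 CPM (counts scaled to the library's total) in dKO against 5246 to 8074 in FGF21 KO (log2 fold change -2.14). The liver libraries held 34269159 to 38999782 counts on genes in FGF21 KO and 28691377 to 39039364 in dKO. The 10 hepatocyte markers summed to 87501 to 113320 CPM in FGF21 KO and 95278 to 112212 CPM in dKO, with Alb, the gene of serum albumin, the most abundant.

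One library labelled dKO, numbered replicate 2 here, stood apart from the other 4 dKO libraries. It lay at -45.2 on the first principal component of the 20 liver libraries, where the other 19 lay between -11.1 and 24.6. Its Fgf21 count of 2 was that of a knockout, which both groups carry, so the count does not tell dKO from FGF21 KO. At genes close to Ucp1, described next, replicate 2 often lay with FGF21 KO and not with the other dKO libraries. Counts and the genes near Ucp1 are therefore also given without it below, and the cause of its position was not tested. That choice used values near Ucp1, so smaller p-values there without replicate 2 follow in part from the choice.

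Expression was tested for 14407 genes with edgeR's quasi-likelihood test over the 20 liver libraries, with Benjamini-Hochberg adjustment, and a gene was called at an adjusted p under 0.01. One gene was called between dKO and FGF21 KO, 0.00694% of the genes tested, and it was lower in dKO. That gene was Klf1, which encodes an erythroid zinc finger factor that binds CACCC boxes. At an adjusted p under 0.05 it was joined by Cacna1a, the pore subunit of the P/Q-type calcium channel, and by Mup12, a major urinary protein. At an unadjusted p under 0.05, 973 genes differed, 6.75% of those tested, 644 of them higher (4.47%) and 329 lower (2.28%) in dKO. The 5 dKO and the 5 FGF21 KO libraries did not overlap at 157 genes (1.09%). In the same model, UCP1 KO against WT, which is UCP1 loss with FGF21 present and shares no library with the first comparison, called 10 genes (0.0694%), and 1470 were at an unadjusted p under 0.05 (10.2%). These 10 calls became 0 with a skeletal muscle marker score as covariate and 112 with DESeq2. The difference between the 2 contrasts, termed effects of UCP1 loss here, was called for 0 genes by edgeR and for 9 by DESeq2. In both contrasts loss of UCP1 cannot be told apart from anything else that differs between the lines, such as sequence near the Ucp1 allele.

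Klf1 was at 1.84, 1.52, 2.34, 2.08 and 2.07 CPM in the 5 FGF21 KO libraries and at 0.417, 0.878, 0.181, 0.361 and 0.719 CPM in the 5 dKO libraries. Every dKO library lay below every FGF21 KO library, and the highest dKO value was replicate 2. The log2 fold change was -1.92 (SE 0.27, edgeR adjusted p = 0.00863), and without dKO replicate 2 it was -2.22 (edgeR adjusted p = 3.29e-04). The call rested on a margin, since over the alternative settings the adjusted p ran from 3.4e-09 to 0.206 and it was lost in 20 of 27 of them. The fold change stayed between -2.22 and -1.70 in all 27. WT liver had 1.62 to 2.24 CPM and UCP1 KO liver 0.332 to 0.515 CPM, so Klf1 was also lower where UCP1 was lost with FGF21 present (log2 fold change -2.10, edgeR adjusted p = 0.00216), a call that was lost with the muscle marker score. The 5 erythroid markers summed to 224 to 331 CPM in FGF21 KO and 225 to 348 CPM in dKO, and a heme synthesis gene made up most of each sum. All 5 had a higher mean in dKO, where Klf1 was lower, with a median log2 fold change of 0.23, and 0 of them reached an unadjusted p under 0.05. Their part in the Klf1 result was not tested.

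Klf1 lies on chromosome 8 of GRCm38 at 84901982 to 84905291, 1.61 Mb from Ucp1 at 83290348 to 83298456 (midpoint to midpoint, RefSeq positions). Of the 25 genes with the smallest p-values, 8 lay within 10 Mb of Ucp1, as did 117 of all 14407 tested. In dKO 16 of the 25 were higher, where 644 of the 973 genes at an unadjusted p under 0.05 were. The groups did not overlap at 16 of the 25, against 1.09% of all genes, which follows largely from their choice by p-value in these libraries. The sign was the same in UCP1 KO against WT for 23, and the share over all genes is not given here. Only Klf1 of these 25 passed the adjusted p under 0.01 with edgeR, and the others are given as values. DESeq2, the study's tool, called 13 genes at that threshold with all libraries kept, 7 of them near Ucp1. These were Klf1, Cacna1a, Mup12, Ccdc120, Dhps, Gpt2, Tm4sf4, Mri1, Bcl6b, Zfp791, Phkb, Rcan1 and an uncharacterised gene.

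The promoter windows of Klf1 and of Mri1, another member of this cluster, are printed to show the sequence at the start of 2 genes with a lower mean in dKO, with the motif CACCC, or GGGTG on the other strand, in capitals. They are the 250 bases before and 50 bases after each gene's start from RefSeq on GRCm38, for Klf1 chr8:84901732-84902031 on the plus strand and for Mri1 chr8:84257275-84257574 on the minus strand.
Klf1: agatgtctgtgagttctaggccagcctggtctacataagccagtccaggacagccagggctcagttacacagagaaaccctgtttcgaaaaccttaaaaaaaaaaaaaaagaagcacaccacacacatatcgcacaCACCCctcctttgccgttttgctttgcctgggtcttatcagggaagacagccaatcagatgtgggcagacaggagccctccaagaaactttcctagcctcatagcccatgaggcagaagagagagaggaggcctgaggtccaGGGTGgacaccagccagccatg
Mri1: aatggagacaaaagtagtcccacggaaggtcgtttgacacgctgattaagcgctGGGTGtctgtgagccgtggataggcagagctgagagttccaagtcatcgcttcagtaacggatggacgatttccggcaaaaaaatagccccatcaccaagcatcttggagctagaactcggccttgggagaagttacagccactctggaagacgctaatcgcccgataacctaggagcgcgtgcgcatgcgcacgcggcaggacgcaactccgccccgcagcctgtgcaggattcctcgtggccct
The Klf1 window held 2 matches and the Mri1 window 1. The windows of Dhps, with a lower mean in dKO as well, and of Tecr, with a higher one, held 0 and 3. No window for Cacna1a was at hand. The motif was found on either strand in 57.5% of 32851 promoter windows and in 72.8% of the 92 windows matched to genes within 10 Mb of Ucp1. The 2 shares are of unlike sets, since the first counts every window and the second 1 window per gene tested in liver. A match is a description of the letters and shows no binding.

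Within 10 Mb of Ucp1, 117 genes were tested. Of these 25 had an unadjusted p under 0.05, 12 higher and 13 lower in dKO, which is 21.4% against 6.75% over all genes. The libraries did not overlap at 8 of them (6.84%, against 1.09% over all genes), and at 18 when dKO replicate 2 was left out, when all genes gave 1.84%. Up to 3 Mb after Ucp1, 23 of 62 genes had such a p (37.1%). Up to 3 Mb before it, where only 8 genes were tested, 1 did, and 2 did without replicate 2. Between 5 and 10 Mb from Ucp1 only 1 of 29 genes did. Elsewhere on chromosome 8 it was 32 of 623 (5.14%). Around Fgf21, which was absent from both groups, 7 of 126 genes within 10 Mb had such a p (5.56%) and 0 were called. The median log2 fold change within 10 Mb of Ucp1 was 0.01.

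**Figure D1:**
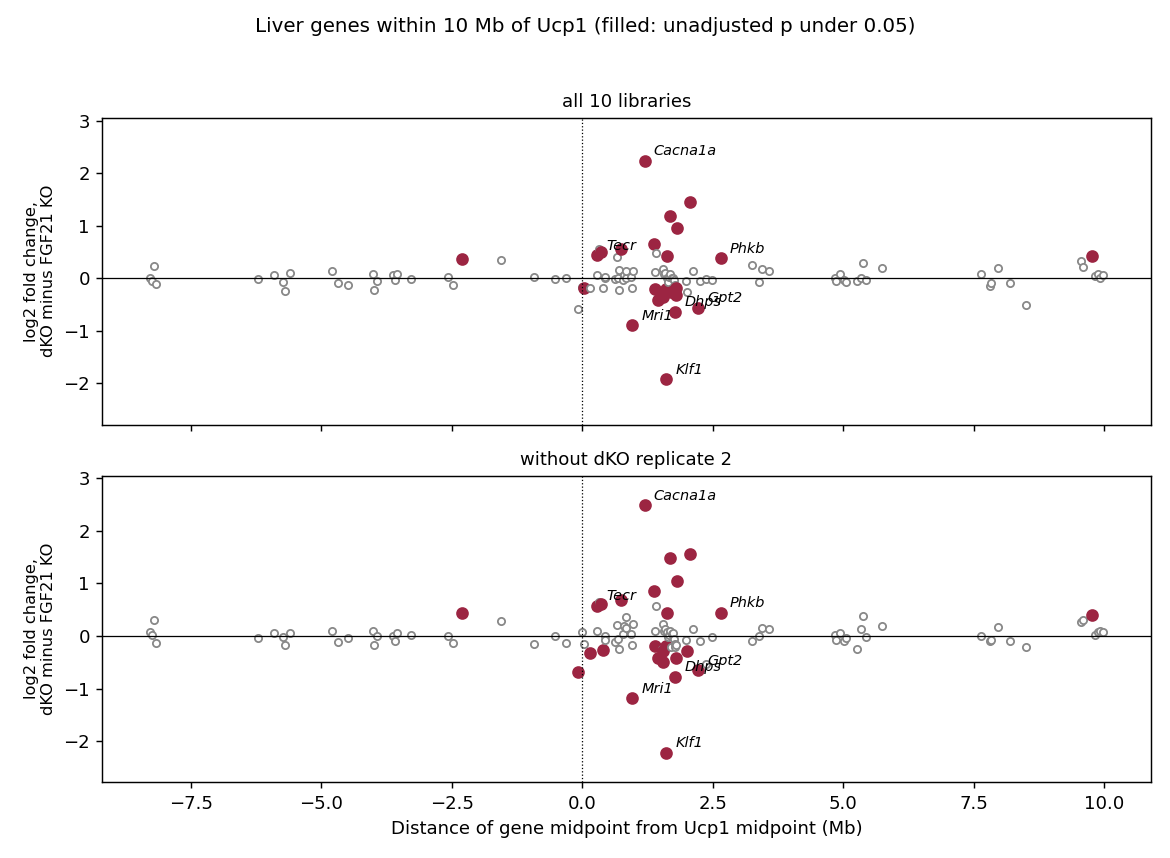
Log2 fold change of dKO minus FGF21 KO in liver (y axis) for the 117 genes within 10 Mb of Ucp1 against the distance of the gene's midpoint from that of Ucp1 in Mb (x axis), with all 10 libraries above and without dKO replicate 2 below. Filled points have an unadjusted p under 0.05. Of the 25 filled points in the upper panel 23 lie between 0 and 3 Mb to the right of Ucp1, with Cacna1a at 2.24 and Klf1 at -1.92 as the extremes.

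Mri1 encodes methylthioribose-1-phosphate isomerase of the methionine salvage pathway. Its level in CPM was 14.0, 13.9, 11.2, 14.5 and 13.8 in FGF21 KO and 6.07, 12.6, 6.55, 5.23 and 5.84 in dKO. The dKO libraries other than replicate 2 lay below all FGF21 KO libraries, and replicate 2 lay inside that range. The log2 fold change was -0.89 (SE 0.18, edgeR adjusted p = 0.156) and without replicate 2 it was -1.18 (edgeR adjusted p = 4.71e-05). WT had 11.5 to 13.2 CPM and UCP1 KO 3.99 to 6.48 CPM. Mri1 overlaps another gene, D8Ertd738e, and the sources used here do not state whether counting used strand, so reads of the 2 genes cannot be told apart.

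Gpt2, the mitochondrial alanine aminotransferase that links alanine to pyruvate, had a lower mean in dKO. In FGF21 KO it was at 444, 466, 476, 447 and 456 CPM, and in dKO at 292, 391, 292, 296 and 283 CPM. The groups did not overlap, and replicate 2 lay between the other dKO libraries and FGF21 KO. The log2 fold change was -0.56 (SE 0.11, edgeR adjusted p = 0.156), which missed the threshold, and -0.65 without replicate 2 (edgeR adjusted p = 0.0141). With all libraries kept, Gpt2 was called by DESeq2 (DESeq2 adjusted p = 0.00367). Dhps, the deoxyhypusine synthase that modifies the translation factor eIF5A, showed the same order. It was at 7.15 to 8.56 CPM in FGF21 KO, at 7.0 CPM in dKO replicate 2 and at 3.98 to 5.34 CPM in the other dKO libraries (log2 fold change -0.63, SE 0.12, edgeR adjusted p = 0.156, and 0.00238 without replicate 2). Dhps overlaps Wdr83, whose own log2 fold change was -0.17 (edgeR adjusted p = 0.795).

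Cacna1a and Tecr had a higher mean in dKO. Cacna1a was at 0.432, 0.656, 0.56, 0.47 and 0.456 CPM in FGF21 KO and at 2.76, 0.708, 2.56, 2.74 and 3.54 CPM in dKO. The lowest dKO library was again replicate 2, just above the FGF21 KO range. Its log2 fold change was 2.24 (SE 0.34, edgeR adjusted p = 0.0152) and 2.49 without replicate 2 (edgeR adjusted p = 4.71e-05), at levels below 1 CPM in FGF21 KO. Uncharacterised gene models overlap Cacna1a. Tecr, the reductase of the last step of very long chain fatty acid elongation, was named after its values were seen. It was at 142 to 173 CPM in FGF21 KO, at 133 CPM in dKO replicate 2 and at 219 to 242 CPM in the other dKO libraries, a log2 difference of 0.45 (edgeR adjusted p = 0.477) that became 0.58 without replicate 2 (edgeR adjusted p = 0.0051).

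**Figure D2:**
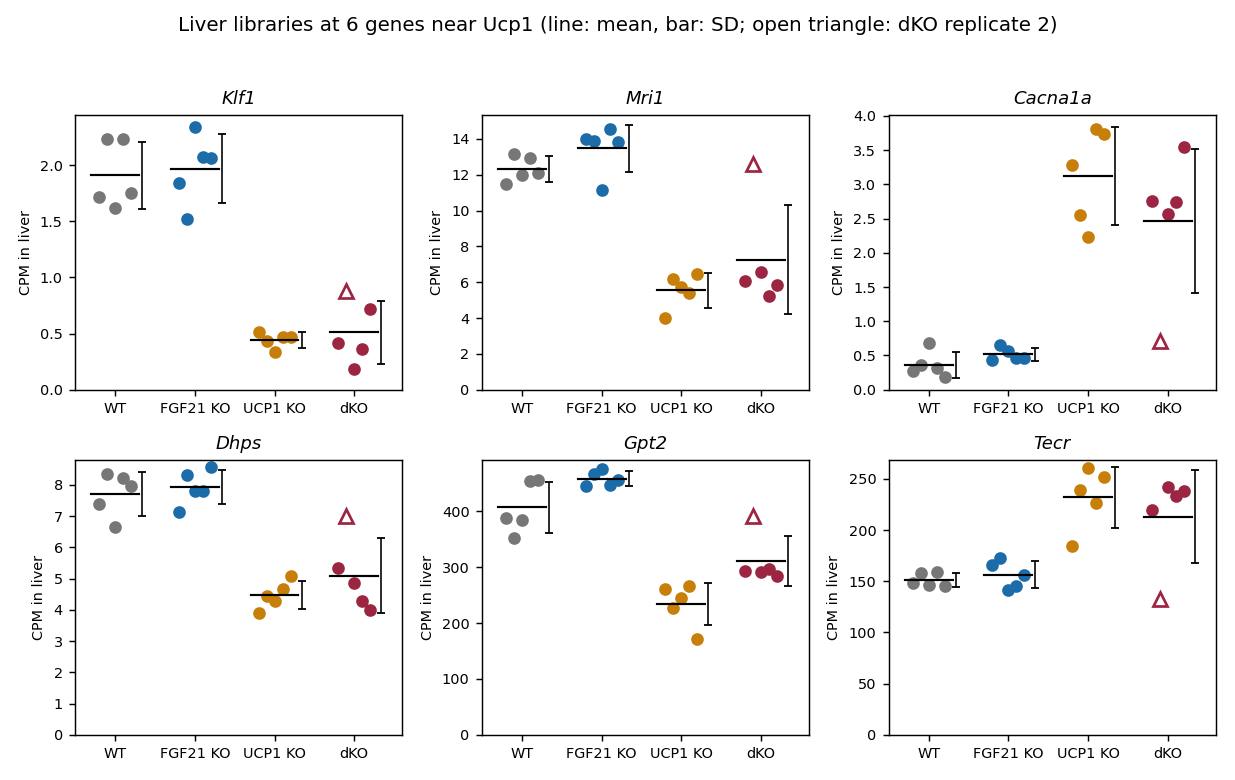
CPM in liver (y axis, from 0) of 6 genes near Ucp1 in the 4 genotypes (x axis). Each point is 1 library, the line is the mean, the bar is the SD and the open triangle is dKO replicate 2, which for Mri1 at 12.6 CPM and Tecr at 133 CPM lies with WT and FGF21 KO while the other dKO libraries lie with UCP1 KO.

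Without dKO replicate 2, 5 of 14322 genes were called (0.0349%), Cacna1a, Mri1, Klf1, Dhps and Tecr, and all lie within 2 Mb of Ucp1. Replicate 2 was left out with its values at such genes known, so these calls follow in part from that choice. Genes at an unadjusted p under 0.05 then numbered 634 (4.43%), of which 26 were near Ucp1. Of the other genes there, Phkb, the β subunit of phosphorylase kinase, was at 28.1 to 32.1 CPM in FGF21 KO and 34 to 43.8 CPM in dKO (log2 fold change 0.38, edgeR adjusted p = 0.158), and it overlaps Itfg1. Zfp791, a zinc finger gene, was at 0.692 to 1.15 CPM against 1.46 to 2.72 CPM (0.95, adjusted p = 0.157), and Mylk3, a myosin light chain kinase of heart, at 0.134 to 0.525 CPM against 0.732 to 1.5 CPM (1.46, adjusted p = 0.202). These 3 genes did not overlap between the groups, replicate 2 included. Replicate 2 did lie inside the FGF21 KO range for Usp38, at 28.9 CPM against 26.3 to 29.4 CPM, and for Gipc1, at 6.49 CPM against 5.67 to 8.26 CPM.

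The position of replicate 2 was measured at genes chosen by another contrast. These were the 6 genes near Ucp1 called in UCP1 KO against WT, which uses no dKO or FGF21 KO mean although the fit shares its spread and filter with them, on a scale that is 0 at the WT mean and 1 at the UCP1 KO mean of log2 CPM. The median over the 6 genes was 0.772, 0.811, 1.06 and 0.798 in dKO replicates 1, 3, 4 and 5, and 0.248 in replicate 2. The single genes of replicate 2 ran from -0.0307 for Mri1 to 0.537 for Klf1 and 0.638 for Gm38426, and at Gm38426 replicates 1 and 5 were lower (0.346 and 0.496). The 6 genes rest on calls that were lost with the muscle marker score, which itself moved with genotype. The FGF21 KO libraries lay between -0.103 and 0.045. Over the 39 genes near Ucp1 with an unadjusted p under 0.05 in UCP1 KO against WT, replicate 2 did not pass the FGF21 KO range at 23, and the other dKO libraries at 11 to 15. In the other tissues no dKO library had this position at Mri1, which was at 3.76 to 5.05 CPM in dKO against 7.04 to 9.47 in FGF21 KO in BAT, at 7.68 to 9.83 against 16.6 to 20.3 in inguinal white fat (iWAT) and at 7.35 to 8.88 against 9.49 to 10.8 in skeletal muscle.

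Of the 25 genes near Ucp1 at an unadjusted p under 0.05 in dKO against FGF21 KO, 20 also had one in UCP1 KO against WT, and all 20 had the same direction. Over all genes it was 195 of 973, 176 of them in the same direction. Near Ucp1, 39 genes had such a p in UCP1 KO against WT. The 6 called there had the same sign in dKO against FGF21 KO. For Klf1, Mri1, Gpt2, Dhps and Cacna1a the difference between the 2 effects had unadjusted p-values of 0.65, 0.324, 0.144, 0.406 and 0.0992. The SE of that difference on the log2 scale was 0.385 for Klf1 and 0.492 for Cacna1a, and these p-values do not show that the 2 effects were equal.

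Some of these differences were found in other tissues and some were not. Between dKO and FGF21 KO, BAT called 2129 of 15729 genes (13.5%), iWAT 2 of 17380 (0.0115%) and muscle 9 of 15114 (0.0595%). Of the genes near Ucp1, BAT called 27 of 110, iWAT 2 of 113 and muscle 4 of 110. The sign in liver was the same for 20 of the 27 in BAT and for all called in iWAT and muscle. Mri1 was lower in dKO in BAT and iWAT, where both passed the test, with log2 fold changes of -0.89 and -1.14. Cacna1a turned around with tissue, with a log2 fold change of 2.04 in iWAT (adjusted p = 6.13e-04) and of -0.84 in BAT (adjusted p = 0.00381). In muscle it was at 2.81 to 3.97 CPM in FGF21 KO and 4.49 to 7.32 CPM in dKO, without overlap (0.77, adjusted p = 0.184). Scoc, a coiled-coil gene 0.15 Mb from Ucp1, was -0.92 in BAT and -0.19 in liver (adjusted p = 0.828). Its liver level was 8.04 to 9.08 CPM in FGF21 KO, 10.25 CPM in dKO replicate 2 and 6.18 to 7.20 CPM in the other dKO libraries. Without replicate 2 the groups did not overlap and the log2 fold change was -0.32 (edgeR adjusted p = 0.45).

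**Figure D3:**
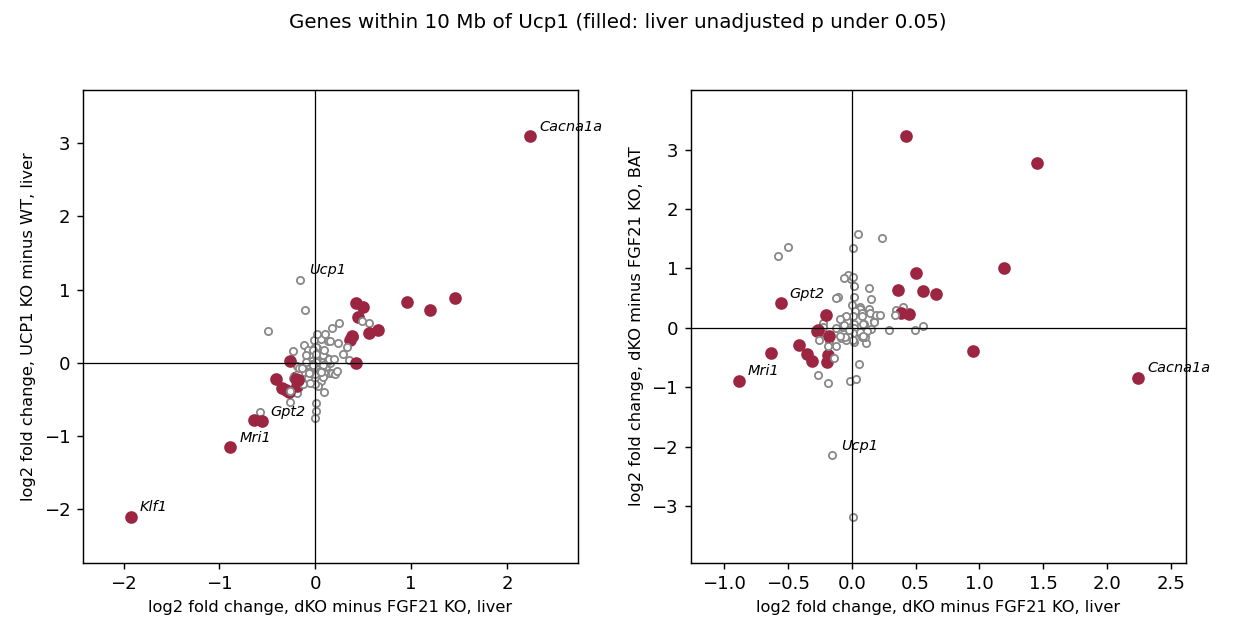
Genes within 10 Mb of Ucp1, each a point, with the liver log2 fold change of dKO minus FGF21 KO on the x axis. The y axis is UCP1 KO minus WT in liver on the left and dKO minus FGF21 KO in BAT on the right, and filled points have an unadjusted p under 0.05 in the liver comparison. On the left 20 of the 25 filled points also have an unadjusted p under 0.05 in UCP1 KO against WT and share its direction, and on the right Cacna1a lies in the opposite quadrant.

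Among genes with a known position away from Ucp1, the smallest p-values were those of Mup12, Ccdc120, Tm4sf4 and Bcl6b. Mup12, on chromosome 4, was at 48.8, 33.8, 46.6, 55.8 and 33.9 CPM in FGF21 KO and at 26.4, 20.9, 24.95, 18.7 and 20.3 CPM in dKO. The groups did not overlap (log2 fold change -0.98, SE 0.16, edgeR adjusted p = 0.0311). WT was at 17.3 to 27.4 CPM and UCP1 KO at 13.7 to 22.6 CPM, so every FGF21 KO library lay above all 15 libraries of the other genotypes, and the difference of the 2 UCP1 effects had an unadjusted p of 7.38e-04. Major urinary proteins are a family of near-identical copies, and the counts of 1 member are uncertain. Bcl6b, a transcriptional repressor of endothelium and lymphocytes, was at 1.33 to 2.05 CPM in FGF21 KO and 2.67 to 4.08 CPM in dKO (log2 fold change 1.00, edgeR adjusted p = 0.157), with 1.10 to 2.87 CPM in UCP1 KO. Its raw counts were 64 to 108 in WT libraries of 32089448 to 41371506 counts. In UCP1 KO libraries of 29508937 to 30627486 counts they were 33 to 80, so UCP1 KO did not lie above WT. Tm4sf4, a tetraspanin-like protein of hepatocytes, was at 58.1 to 70.5 CPM against 81.4 to 97.8 CPM (0.46, adjusted p = 0.156), and UCP1 KO at 69.4 to 105.5 CPM was above WT at 56.3 to 72.2 CPM for all but 1 library. Ccdc120, on the X chromosome, was at 0.717 to 1.10 CPM against 1.36 to 2.19 CPM (0.90, adjusted p = 0.0712), and UCP1 KO was higher than WT as well (1.17, adjusted p = 0.00304).

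Of the rest of the leading 25 genes, Rcan1, an inhibitor of calcineurin (log2 fold change 0.73), Actg1, cytoplasmic γ-actin (0.59), Anxa5, a phospholipid-binding annexin (0.45), and Tnfrsf11b, the decoy receptor osteoprotegerin (0.81), were higher in dKO, while Prr18 (-1.82), Gba2, a non-lysosomal glucosylceramidase (-0.63), and Nanp, a phosphatase of sialic acid synthesis (-0.98), were lower, at adjusted p-values from 0.158 to 0.385. Gba2 overlaps Creb3 and Rgp1.

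Secreted matrix proteins and a collagen chaperone were also among the 25. Sparc, a matrix glycoprotein, was at 37.1 to 43.0 CPM in FGF21 KO and at 43.6 to 65.5 CPM in dKO (log2 fold change 0.51). Fstl1, a secreted follistatin-like protein, was at 3.97 to 5.47 CPM against 5.57 to 9.64 CPM (0.70), and Serpinh1, the collagen chaperone HSP47, at 8.14 to 12.4 CPM against 11.1 to 18.6 CPM (0.63), each at an adjusted p of 0.385. Of the 9 markers of hepatic stellate cells and fibroblasts, 6 were higher in dKO at an unadjusted p under 0.05 (4.47% of all genes), 0 were lower and 0 were called, with a median log2 fold change of 0.41, and 0.31 without replicate 2, where all genes had -0.0013. Col1a2 and Col3a1, fibrillar collagen chains, did not overlap between the groups, as 1.09% of all genes did not, Col1a2 at 6.66 to 9.20 CPM against 10.1 to 14.4 CPM and Col3a1 at 20 to 26.4 CPM against 30.5 to 42.3 CPM (0.66 and 0.70, adjusted p = 0.43 and 0.477). The 9 markers summed to 184 to 272 CPM in FGF21 KO, 262 to 372 CPM in dKO, while WT had 186 to 409 CPM and UCP1 KO 267 to 348 CPM. FGF21 KO and dKO therefore overlapped in their sums, and the WT range overlapped both. Without dKO replicate 2, 4 of the 9 were higher at such a p (2.9% of all genes), all among the 6. In bulk liver, more cells of a type and more RNA per cell cannot be told apart. Bcl6b and Lyve1 are genes of endothelium, and of its 7 markers only Lyve1, at 3.94 to 8.17 CPM in FGF21 KO and 6.82 to 19.1 CPM in dKO, had an unadjusted p under 0.05.

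Immediate early genes respond within minutes to growth factors, stress or handling. All 20 had a higher mean in dKO and 12 were higher at an unadjusted p under 0.05, against 4.47% of all genes, with a median log2 fold change of 0.66, and 0 were called (lowest adjusted p = 0.537). Fos, a subunit of the AP-1 factor, was at 0.836, 0.42, 2.19, 1.39 and 1.45 CPM in FGF21 KO and at 7.04, 1.37, 1.53, 5.77 and 4.21 CPM in dKO. Replicates 1, 4 and 5 of dKO were high, and replicates 2 and 3 lay in the FGF21 KO range. Zfp36, which speeds the decay of cytokine mRNA, was at 35.6 to 66.6 CPM against 44.7 to 185 CPM (1.13), and Klf6 at 8.17 to 11.9 CPM against 10.6 to 19.2 CPM (0.62). Junb and Ier2 are members of this list that also lie within 2 Mb of Ucp1, with dKO replicate 2 lowest in dKO for both (2.29 and 7.05 CPM). Without replicate 2, 10 of the 20 were higher at such a p, against 2.9% of all genes, and the median was 0.92.

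Genes of the integrated stress response, the pathway through ATF4 that raises Fgf21 in liver, showed 3 of 21 higher and 0 lower at an unadjusted p under 0.05 (median 0.10), where all genes gave 4.47% and 2.28%. Atf3 was at 0.683 to 2.71 CPM in FGF21 KO and at 2.93 to 3.42 CPM in dKO, without overlap, as for 1.09% of all genes (log2 fold change 0.91, adjusted p = 0.537). Ddit3, the factor CHOP, was at 3.89 to 6.01 CPM against 5.19 to 13.7 CPM (0.89, adjusted p = 0.553), and its locus overlaps Mbd6 and Mars1. Gdf15, a stress hormone that lowers food intake, had a log2 fold change of 2.35 (adjusted p = 0.553) that came from 31.1 CPM in dKO replicate 1 and 5.26 CPM in replicate 5, while the other dKO libraries at 1.34 to 1.97 CPM lay among the FGF21 KO libraries at 0.791 to 3.16 CPM. Of 21 endoplasmic reticulum chaperone and unfolded protein response genes 0 had such a p (lowest adjusted p = 0.836), while 15 of them were higher in UCP1 KO than in WT by that measure, against 5.8% of all genes.

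**Figure D4:**
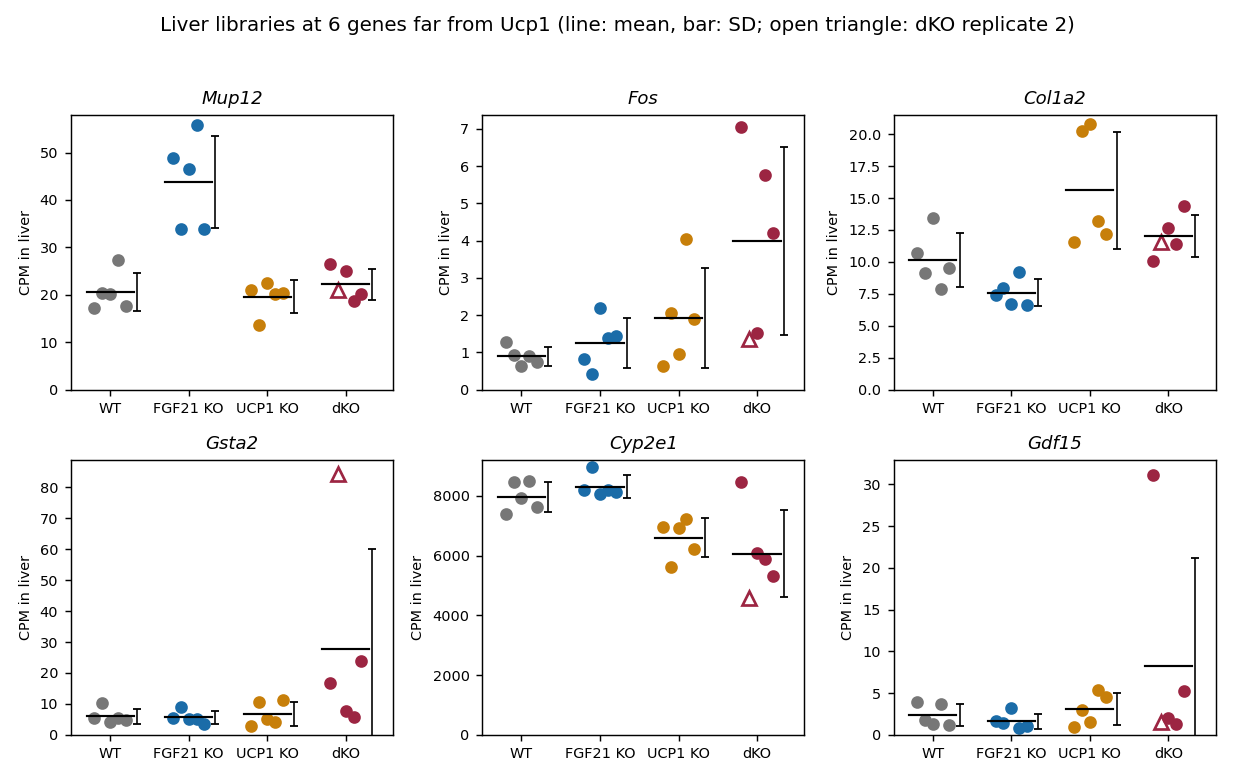
CPM in liver (y axis, from 0) of 6 genes outside the Ucp1 region in the 4 genotypes (x axis). Points are libraries, lines means, bars SD cut at 0, and the open triangle is dKO replicate 2. Mup12 is high in FGF21 KO alone, Gsta2 is highest at 84.4 CPM in dKO replicate 2 and Gdf15 at 31.1 CPM in dKO replicate 1.

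Of 10 periportal markers 5 were higher and 0 lower in dKO at an unadjusted p under 0.05 (median 0.24), and of 10 pericentral markers 0 were higher and 2 lower (median -0.21), with 0 called in either list. Over all genes 4.47% were higher and 2.28% lower at such a p, and 2.9% and 1.53% without replicate 2. Their sums overlapped, with 6646 to 9241 CPM in FGF21 KO and 8006 to 9999 CPM in dKO for the periportal and 12737 to 15095 against 9017 to 13862 CPM for the pericentral markers. Cdh1, E-cadherin, was at 54.9 to 81.6 CPM in FGF21 KO and 63.5 to 98.9 CPM in dKO (log2 fold change 0.47), and Hal, histidine ammonia lyase, at 241 to 336 CPM against 322 to 451 CPM (0.43). Cyp2e1, the ethanol-inducible cytochrome P450 around the central vein, was at 8203, 8985, 8050, 8188 and 8125 CPM in FGF21 KO and at 8454, 4583, 6098, 5904 and 5304 CPM in dKO. Replicate 1 of dKO lay within the FGF21 KO range and the other dKO libraries below it (-0.45, adjusted p = 0.477). Cyp1a2, which oxidizes caffeine, was at 743 to 991 CPM against 390 to 743 CPM (-0.51, adjusted p = 0.619). UCP1 KO liver held 5629 to 7218 CPM of Cyp2e1, below WT at 7385 to 8502 CPM. Without replicate 2, 4 periportal markers had such a p, 3 of them among the 5, and so had the same 2 pericentral markers.

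Of 32 genes of amino acid catabolism and the urea cycle, 7 were higher and 2 lower at an unadjusted p under 0.05 (all genes 4.47% and 2.28%), and 3 and 2 without replicate 2 (all genes 2.9% and 1.53%). Besides Gpt2, these included Cth, cystathionine γ-lyase of transsulfuration, at 272 to 317 CPM in FGF21 KO and at 301 to 487 CPM in 4 dKO libraries but 1355 CPM in replicate 2 (log2 fold change 0.97, and 0.39 without it), and Sdsl, a serine dehydratase-like enzyme (0.63). Of 31 xenobiotic genes 7 were higher and 3 lower, where all genes gave 4.47% and 2.28%. Gsta2, a glutathione S-transferase, was at 3.44 to 8.90 CPM in FGF21 KO and at 16.7, 84.4, 7.74, 5.81 and 23.8 CPM in dKO, so its log2 fold change of 2.30 (adjusted p = 0.385) became 1.27 without replicate 2. Gsta1 had a like pattern (3.05 and 1.76), and reads of these near-identical copies may have been split between them. Without replicate 2 the list had 3 higher and 5 lower, where all genes gave 2.9% and 1.53%.

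Of 32 PPARα targets and fatty acid oxidation genes 5 were higher and 1 lower at an unadjusted p under 0.05 (median -0.01), and 3 and 0 without replicate 2. Over all genes it was 4.47% and 2.28%, and 2.9% and 1.53% without replicate 2. Cyp4a14, a fatty acid ω-hydroxylase, was at 51.1 to 151 CPM in FGF21 KO and at 395, 795, 206, 105 and 392 CPM in dKO (log2 fold change 1.84, adjusted p = 0.553, and 1.38 without replicate 2). Ppargc1a, the coactivator PGC-1α, was at 7.46 to 13.5 CPM against 11.1 to 15.1 CPM (0.52), and Pdk4, the kinase that shuts off pyruvate dehydrogenase, reached 52.8 CPM in replicate 2 against 7.48 to 13.5 CPM in the other dKO libraries (1.53, and 0.64 without it). Of 24 lipogenic genes 1 was higher and 3 lower. Pklr, liver pyruvate kinase, was at 241 to 494 CPM against 148 to 300.1 CPM (-0.57, adjusted p = 0.677), and Pnpla3, a lipid droplet hydrolase, at 2.45 to 18.6 CPM against 1.71 to 8.54 CPM (-1.15). Neither stayed at such a p without replicate 2, when 0 of the 24 did. Cd36, a fatty acid uptake protein, was at 19.7 to 48.8 CPM against 30.8 to 101 CPM (0.84), and with Plin4 (0.66) made up the 2 of 20 lipid droplet genes that were higher. Of 27 cholesterol genes, 27 interferon genes, 27 respiratory chain genes and 23 apolipoprotein genes, 0 had an unadjusted p under 0.05, with lowest adjusted p-values of 0.768, 0.753, 0.849 and 0.78, and without replicate 2 only 1 interferon gene did.

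The counts of the next lists are of genes at an unadjusted p under 0.05, which over all genes were 4.47% higher and 2.28% lower, and 2.9% and 1.53% without replicate 2. In the circadian list 3 of 19 were higher and 3 lower, led by Nfil3 (0.87) and Nr1d2 (-0.42), with Arntl, the clock activator BMAL1, at 39.9 and 29.9 CPM in dKO replicates 2 and 4, 14.5 to 15.2 CPM in the other dKO libraries and 6.12 to 14.7 CPM in FGF21 KO. Without replicate 2 that list had 1 higher and 0 lower. Of 24 bile acid genes 0 were higher and 2 lower (1 without replicate 2), with Slc10a1, the bile salt uptake transporter NTCP, at 618 to 873 CPM against 500 to 648 CPM (-0.29, adjusted p = 0.574). Of 23 genes of FGF and thyroid hormone signalling 1 was higher, Dusp6, a phosphatase of ERK (0.61, and 0.32 to 0.76 over the alternative settings), and 1 lower, Fgfr3, an FGF receptor (-0.48, adjusted p = 0.477). Of 24 genes of glucose metabolism 4 were higher (2 without replicate 2), among them Fbp1 of gluconeogenesis (0.24) and Igfbp1 (1.04). Over the alternative settings Igfbp1 ran from 0.51 to 1.28, and it was one of 4 of 28 hepatokines that were higher. Of 25 sex-dependent genes 2 were higher and 2 lower (1 and 1 without replicate 2), with Hsd3b5, a male-biased steroid dehydrogenase, at 281 to 483 CPM against 141 to 276 CPM (-0.53, adjusted p = 0.619). In the acute phase list Tfrc, the transferrin receptor, was the 1 of 28 (0.68, and 0.36 without replicate 2). Without replicate 2 Tfrc no longer had such a p, and another gene of the list did. In UCP1 KO against WT 15 of these 28 were higher and 1 lower by that measure (all genes higher 5.8%), and 11 of 28 had an unadjusted p under 0.05 for the difference of the effects (all genes 5.16%). Saa1, a serum amyloid A, was at 3056 CPM in dKO replicate 4 and at 38.5 to 366 CPM in the other dKO libraries, with FGF21 KO at 96.9 to 872 CPM, and Saa2 was highest in replicate 4 as well, at 1481 CPM against 14.5 to 99.55 CPM. In the antioxidant list Gss, glutathione synthetase, was the 1 of 22 (0.25, and 0 of 22 without replicate 2), and in the cell cycle list Ccne1 the 1 of 22, at a lower level in dKO (-0.88).

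**Figure D5:**
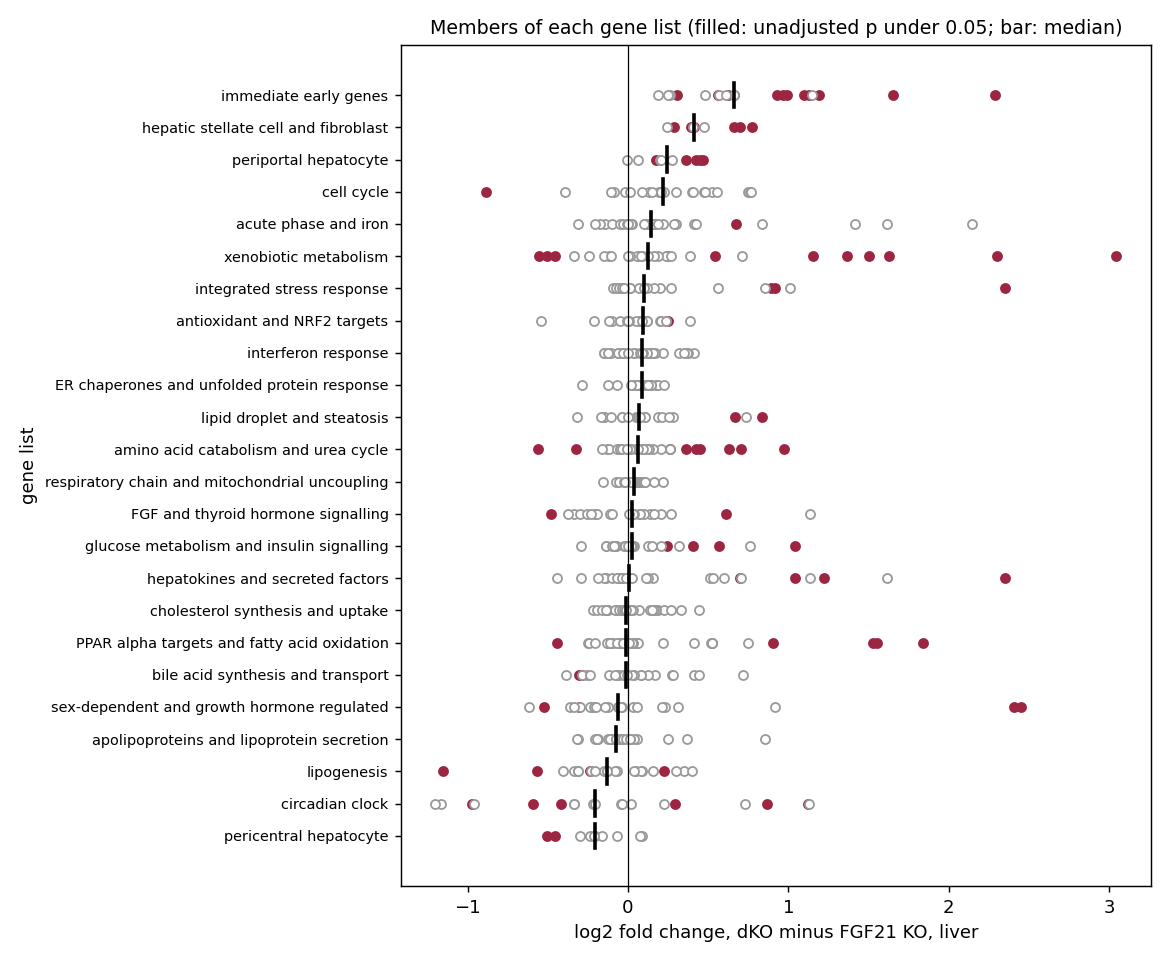
Log2 fold change of dKO minus FGF21 KO in liver (x axis) of each measured member of 21 function lists and 3 liver cell type lists (y axis, ordered by their median). Filled points have an unadjusted p under 0.05 and black bars are medians, which run from -0.21 for pericentral markers to 0.66 for immediate early genes, where all 20 members lie above 0.

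Sums of markers of other cell types overlapped between the groups. The 10 skeletal muscle markers summed to 21.3 to 45.3 CPM in FGF21 KO and 22.2 to 57.2 CPM in dKO, with WT at 42.1 to 177 CPM. Between dKO and FGF21 KO all 10 had a higher mean in dKO, with a median log2 fold change of 0.39, and 0.53 without replicate 2. Of these 10, 0 had an unadjusted p under 0.05. All 10 were lower in UCP1 KO than in WT by that measure, so the UCP1 KO and WT comparison and the difference of the effects moved with muscle transcripts, and their part in them was not tested beyond the fit with the muscle score as a covariate. Macrophage markers summed to 153 to 614 CPM in FGF21 KO and 178 to 412 CPM in dKO, and 0 of 8 had such a p. Of 7 adipocyte, 7 lymphocyte and 5 neutrophil markers 0 did, of 6 bile duct markers 1 did (Krt7, 0.97) and of 2 pancreatic acinar markers 1 did (Cela1, -0.49), where 6.75% of all genes did. Without replicate 2, 1 adipocyte marker and 0 acinar markers did, and Krt7 no longer did (0.85) while another bile duct marker, Spp1, did (0.30). None of the markers was at 0 in all libraries.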

How the data were processed

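Poly(A) RNA of liver, BAT, iWAT and muscle was sequenced as paired ends. STAR alignments to mm10 (GRCm38) were counted per UCSC known gene by the authors with HTSeq-count, and the deposited values are raw read counts, each library in a file of its own. Whether counting used strand is not given in the sources used here. A row that names no gene was dropped (at most 3.42e-05% of a library).

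The study's filter was used, which keeps genes that exceed 15 counts in a library and 75 in all, with at most 10 libraries at 0. The quasi-likelihood test of edgeR 4.0.16 (R 4.3.3, limma 3.58.1) was fitted to TMM-scaled counts, with 1 model over the 20 libraries of a tissue and 1 mean per genotype. Benjamini-Hochberg adjustment ran over all genes tested, and an adjusted p under 0.01 was a call. The study's tool, DESeq2 (1.42.0), was an alternative, beside RLE factors, no filter, fewer libraries and a muscle marker score. Single genes also had a two-sided exact permutation test of log2 CPM (prior count 2), which cannot go under 0.00794 here and gave 0.00794 to 0.0476 for the 25 leading genes. CPM uses TMM-scaled totals. No pair among the 190 pairs of liver libraries had identical counts. The code was tested on simulated data.

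Members, lists and tests were chosen with earlier results of these data known. The genes named are Ucp1 and Fgf21, the 25 smallest p-values in liver (2 uncharacterised names left out), up to 3 members of each function list by p-value, and genes near Ucp1 called in any tissue or in UCP1 KO against WT. Other genes were named after their values were seen. Leaving out dKO replicate 2 for lists and regions, and a 5 Mb window, were chosen after seeing the data.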

Additional observations from a re-analysis of the deposited data

Results flagged for a closer look

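All 79 genes tested in liver and named in the text were searched in the 5 libraries of FGF21 KO and of dKO, 158 groups, for a library far from the other 4 (a gap to the nearest of over 0.71 of the range). Chance flags about 1 in 20 such groups, and 25 were found. Many of these genes were named with their values known, some because 1 library stood apart, so the count is no measure of how common such libraries are.

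Replicate 2 of dKO made 11 of the 25. Near Ucp1 it was the highest dKO library for Gpt2, at 391 CPM against 296 CPM or less, for Mri1, at 12.6 CPM against 6.55 CPM or less, and for Scoc, at 10.25 CPM against 7.20 CPM or less. It was the lowest for Tecr, at 133 CPM against 219 CPM or more, and for Gipc1, a PDZ adaptor protein, at 6.49 CPM against 9.71 CPM or more. Elsewhere it was the highest for Cth, at 1355 CPM against 487 CPM or less, for Pdk4, at 52.8 CPM against 13.5 CPM or less, and for Tfrc, at 69.05 CPM against 35.1 CPM or less. Gsta2 was at 84.4 CPM in it against 23.8 CPM or less, and Gsta1 at 3.25 CPM against 0.636 CPM or less. Hsd3b5 was at 141 CPM in it against 267 CPM or more.

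Replicate 4 of dKO was the highest dKO library for Saa1, at 3056 CPM against 366 CPM or less, and for Saa2, at 1481 CPM against 99.55 CPM or less. It was also the highest for Nfil3, at 59.05 CPM against 32.6 CPM or less, and for Igfbp1, at 117 CPM against 44.6 CPM or less. Replicate 1 of dKO held 31.1 CPM of Gdf15 against 5.26 CPM or less.

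In FGF21 KO, replicate 5 was the highest for Saa1, at 872 CPM against 146 CPM or less, and for Saa2, at 285 CPM against 29.0 CPM or less. It was also the highest for Cdh1, at 81.6 CPM against 61.1 CPM or less, and for Ppargc1a, at 13.5 CPM against 8.90 CPM or less. Replicate 2 was the highest for Cyp2e1, at 8985 CPM against 8203 CPM or less, for Cyp1a2, at 991 CPM against 786 CPM or less, and for Slc10a1, at 873 CPM against 689 CPM or less. Mri1 was at 11.2 CPM in replicate 3 against 13.8 CPM or more, and Itfg1, which overlaps Phkb, at 69.6 CPM in replicate 4 against 74.1 CPM or more. Why these libraries differ was not tested.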

How the results depend on the processing

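Between dKO and FGF21 KO in liver, 1 gene was called. RLE factors also gave 1, no low-count filter 2, an adjusted p under 0.05 gave 3 and DESeq2 13, of which 7 lie near Ucp1. The fits of the 2 genotypes alone, without the WT libraries, and with a muscle marker score as covariate gave 0. Leaving out each of the 20 liver libraries in turn gave 0 to 5 calls, with 5 only without dKO replicate 2, 2 without WT replicate 3, 1 without dKO replicate 3 and 0 for the other 17, and every gene called in these fits lies near Ucp1. The count of genes near Ucp1 at an unadjusted p under 0.05 stayed at 24 to 26 under the tools, filters and windows tried, and at 22 to 27 when a library was left out. UCP1 KO against WT called 10 genes, 112 with DESeq2 and 0 with the muscle score. The difference of the effects was called for 0 genes, 9 with DESeq2, 0 with the muscle score and 0 without dKO replicate 2. Muscle called 9 genes and 17 with DESeq2, and BAT 2129 and 3065. The log2 fold change of Ucp1 in liver, -0.16, ran from -0.35 to 0.27 when a library was left out and changed sign in 3 such fits. No paired analysis was possible because the labels carry no replicate numbers, those used here only name samples, and no label ties libraries to a shared mouse, litter or day. With 5 libraries a group and 1 library that stands apart, small differences may have been missed, and an adjusted p above the threshold does not show that the genes were alike.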
